A study of Mus musculus with 90 samples.

Results

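The mitochondrial ribosomal proteins were followed as the 77 genes whose symbol begins with Mrpl or Mrps followed by a digit, out of 32697 gene rows counted in every library. By name, 48 belong to the large subunit (Mrpl) and 29 to the small subunit (Mrps). Mrpl53 had 0 counts in all 90 libraries; its annotated gene (chr6:83109040-83109939, GRCm38) shares 88% of its exon length with Gm42688 on the same strand. The other 76 members were tested in every tissue.

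The RNA came from 4 tissues of male mice: brown fat (BAT, the heat-producing depot), inguinal white fat (iWAT, a depot under the skin in which brown-like cells can appear), muscle labelled as gastrocnemius, and hypothalamus. Mice were wild type (WT), had no uncoupling protein 1 (UCP1 KO), had no fibroblast growth factor 21 (FGF21 KO), or carried both knockouts (dKO). The lines are given as homozygous; the double knockout is written once with FGF12 in the design text and is taken as UCP1 and FGF21, as the extraction protocol has it. All groups shared the same cold: rearing at 30 °C, then from 10 to 12 weeks of age 12 days at 18 °C and 3 weeks at 5 °C, with food taken away 2 to 3 h before sampling. No group stayed warm. Each genotype was represented by 5 or 6 libraries per tissue; only WT and FGF21 KO in BAT, FGF21 KO in the other tissues, and dKO in hypothalamus had 5. Libraries cannot be matched to individual mice from the labels, so p-values measure the spread between the labelled samples. UCP1 lets brown fat mitochondria release the energy of the proton gradient as heat, and FGF21 is a circulating metabolic hormone.

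Mitochondria keep ribosomes of their own, which translate only the few messages of the mitochondrial genome, all of them for subunits of the respiratory chain and the ATP synthase. All of the protein of these ribosomes is encoded in the nucleus, made in the cytosol and imported, while the ribosomal RNAs come from the mitochondrial genome. The small subunit decodes the message, the large subunit joins the amino acids, and many of the proteins have no counterpart in bacterial ribosomes. Brown adipocytes are packed with mitochondria and depend on this machinery for their respiratory chain. Subunit is taken from the gene name here, although structures place Mrps30 and Mrps18a in the large subunit, and Mrps36 is described as a part of the 2-oxoglutarate dehydrogenase complex of the citric acid cycle.

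Total counts ranged from 18.1 M to 69.9 M per library (1 M is 1000000 counts), and the tested members were well covered: a member had between 191 counts (Mrps6) and 9518 counts (Mrpl42) in a single library, with a median of 1516. In BAT, Ucp1 stood at 6460 to 10100 CPM (counts per M of the TMM-scaled library size) in WT and at 880 to 1390 in UCP1 KO, and Fgf21 at 0.171 to 1.73 in WT, 10.1 to 38.9 in UCP1 KO, 0 to 0.402 in FGF21 KO and 0 to 0.0261 in dKO. In iWAT, Ucp1 counts did not check the label: they stood at 1030 to 1770 CPM in UCP1 KO and 104 to 1170 in WT, and a count over the whole gene does not show whether the deleted part was present. Fibre genes summed to at least 182900 CPM in every muscle library and neuronal genes to at least 3131 CPM in every hypothalamus library. A skeletal muscle fibre list of 14 genes stood high (mean log2 CPM over 7) in 7 of 22 BAT libraries and 4 of 23 iWAT libraries, the latter in WT, UCP1 KO and FGF21 KO. A lymphocyte list of 16 genes (mean log2 CPM over 2) stood high in 12 of 23 iWAT libraries, some in every genotype. Counts of members that passed in UCP1 KO against WT and dKO against FGF21 KO are given with and without these libraries. The depot difference, the group sums, the subunit ratios and the tissue levels use all libraries.

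Direction depends here on how libraries are scaled to each other. TMM, used below unless another scaling is named, sets the typical gene near no change; its factors ran from 0.815 to 1.276 in BAT and from 0.821 to 1.38 in iWAT. With total counts as library sizes, an alternative chosen after seeing the data, the median log2 fold change over all genes in UCP1 KO against WT moved from -0.02 to 0.41 in BAT and from -0.13 to -0.53 in iWAT. In dKO against FGF21 KO it moved from -0.01 to 0.37 in BAT and from -0.15 to -0.41 in iWAT. "Rose" and "fell" are therefore relative to the typical gene unless total counts are named, and the places where total counts turn a direction are given beside it. Relative to the median of all genes, the members' median in UCP1 KO against WT was -0.06 in BAT with both scalings. In iWAT it was 0.90 with TMM and 0.91 with total counts. A change of scaling shifts all genes nearly alike, so these relative values stay close by construction and do not test the scaling.

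Promoters are shown for Mrps36 and Mrpl50, and for Mrps18a and Mrps18b, which were added because they hold searched motifs. Mrps2 and Mrpl46 are also among the largest changes, hold none of the motifs and are not printed. The printed promoters therefore do not show how often changed members hold a motif. Mrps36 changed most in iWAT and Mrpl50 most in BAT, while Mrps18a and Mrps18b rose in both depots and hold searched motifs. Each window runs from 250 bases before to 50 bases after the gene start in RefSeq (GRCm38.p6), 5′ to 3′ on the gene's strand. Capitals mark matches to the motifs given further on, apart from the short form GCATGC, which is not marked. Mrps36 lies at chr13:100744610-100744909 (minus strand), Mrpl50 at chr4:49521034-49521333 (minus), Mrps18a at chr17:46110754-46111053 (plus) and Mrps18b at chr17:35916391-35916690 (minus).
Mrps36: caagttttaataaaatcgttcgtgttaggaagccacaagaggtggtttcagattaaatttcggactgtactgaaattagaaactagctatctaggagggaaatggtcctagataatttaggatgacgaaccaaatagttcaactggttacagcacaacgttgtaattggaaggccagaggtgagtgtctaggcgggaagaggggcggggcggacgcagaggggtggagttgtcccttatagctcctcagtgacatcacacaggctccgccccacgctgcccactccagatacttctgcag
Mrpl50: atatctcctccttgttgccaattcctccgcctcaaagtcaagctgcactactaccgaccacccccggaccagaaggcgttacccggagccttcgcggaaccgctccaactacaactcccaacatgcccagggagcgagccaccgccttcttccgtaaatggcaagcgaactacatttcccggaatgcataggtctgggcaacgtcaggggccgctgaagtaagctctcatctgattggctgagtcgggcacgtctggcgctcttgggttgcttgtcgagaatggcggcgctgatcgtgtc
Mrps18a: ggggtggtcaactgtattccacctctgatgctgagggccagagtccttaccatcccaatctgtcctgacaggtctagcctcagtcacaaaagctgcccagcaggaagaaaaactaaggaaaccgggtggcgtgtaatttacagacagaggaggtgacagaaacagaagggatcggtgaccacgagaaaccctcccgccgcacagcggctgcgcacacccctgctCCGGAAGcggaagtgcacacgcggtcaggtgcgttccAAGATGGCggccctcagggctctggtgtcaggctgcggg
Mrps18b: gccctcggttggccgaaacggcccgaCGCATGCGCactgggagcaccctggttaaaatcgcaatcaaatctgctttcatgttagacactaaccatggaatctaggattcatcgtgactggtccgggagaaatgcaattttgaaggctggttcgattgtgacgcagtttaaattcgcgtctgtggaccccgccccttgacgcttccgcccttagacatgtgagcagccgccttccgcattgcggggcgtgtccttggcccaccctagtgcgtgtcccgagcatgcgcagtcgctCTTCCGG

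Most of the set had higher mRNA in iWAT without UCP1, with both scalings. Against WT, 69 of the 76 tested members rose in UCP1 KO and 0 fell (edgeR's quasi-likelihood test, Benjamini-Hochberg adjusted p under 0.05 over all genes tested); over all 16751 genes tested, 46.3% passed in either direction, 22.3% higher and 24.0% lower. The median log2 fold change of the members was 0.77, beside -0.13 over all genes. In dKO against FGF21 KO, a comparison that shares no library with the first, 64 rose and 0 fell, beside 37.3% of all genes in either direction, 16.8% higher and 20.5% lower, with a median of 0.66. All 64 were among the 69, and the shared part over all genes is not given here. With total counts 55 rose and 3 fell (Mrpl24, Mrpl49 and Mrps26) in the first comparison, beside 12.2% of all genes higher and 53.3% lower. In the second, 59 rose and 2 fell (Mrpl49 and Mrpl52), beside 11.4% and 40.1%. In bulk tissue, more cells of a type and more RNA per cell cannot be told apart.

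Mrps36 had the highest fold. It stood at a lowest, median and highest of 10.68, 15.29 and 20.99 CPM in the 6 WT libraries and of 34.1, 49.8 and 62.7 in the 6 UCP1 KO libraries. In FGF21 KO the 5 libraries held 13.6, 13.7, 13.7, 16.9 and 22.3 CPM, and in dKO the lowest, median and highest were 33.3, 44.0 and 59.0. Every UCP1-deficient library lay above every UCP1-intact one. The log2 fold change was 1.66 ± 0.19 (SE; adjusted p = 7.83e-07) for UCP1 KO against WT and 1.52 ± 0.20 (adjusted p = 9.84e-06) for dKO against FGF21 KO, by edgeR; with total counts it was 1.27 and 1.25, without overlap. The annotation names 3 pseudogenes after Mrps36, and how reads shared with them were counted is not given in the sources used here.

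Mrps2, a core small subunit protein with a bacterial counterpart, stood at a lowest, median and highest of 29.7, 36.4 and 48.5 CPM in WT and 83.1, 112 and 122 in UCP1 KO. Its FGF21 KO libraries held 31.8, 34.5, 36.3, 39.9 and 43.0 CPM, and dKO ran from 72.0 over 90.2 to 112. Again no UCP1-deficient library overlapped a UCP1-intact one, and the log2 fold changes were 1.49 ± 0.14 and 1.30 ± 0.15 (adjusted p = 1.01e-07 and 2.16e-06 by edgeR). Mrpl15 and Mrpl46, large subunit proteins, rose by log2 fold changes of 1.31 ± 0.15 and 1.29 ± 0.14 against WT. Mrpl46 (chr7:78775236-78783531) shares 12.2% of its exon length with Mrps11 on the opposite strand; whether the counting used strand is not stated.

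The 7 members that did not pass in UCP1 KO against WT in iWAT all had positive values on the TMM scale. Mrpl49, a large subunit protein without a bacterial counterpart, had the lowest value, 0.08 ± 0.11 (adjusted p = 0.567), with WT libraries from 31.5 to 51.0 CPM and UCP1 KO libraries from 38.8 to 46.9; with total counts it fell by 0.30 (adjusted p = 4.02e-05 by edgeR). In 55 of the 76 members no UCP1 KO library overlapped a WT library, all of them with UCP1 KO above, beside 22.3% of all genes without overlap; in dKO against FGF21 KO the count was 43, beside 17.3%. With total counts 46 lay above and 2 below in the first comparison, beside 31.5% of all genes without overlap, and 46 above and 1 below in the second, beside 21.6%.

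**Figure D1:**
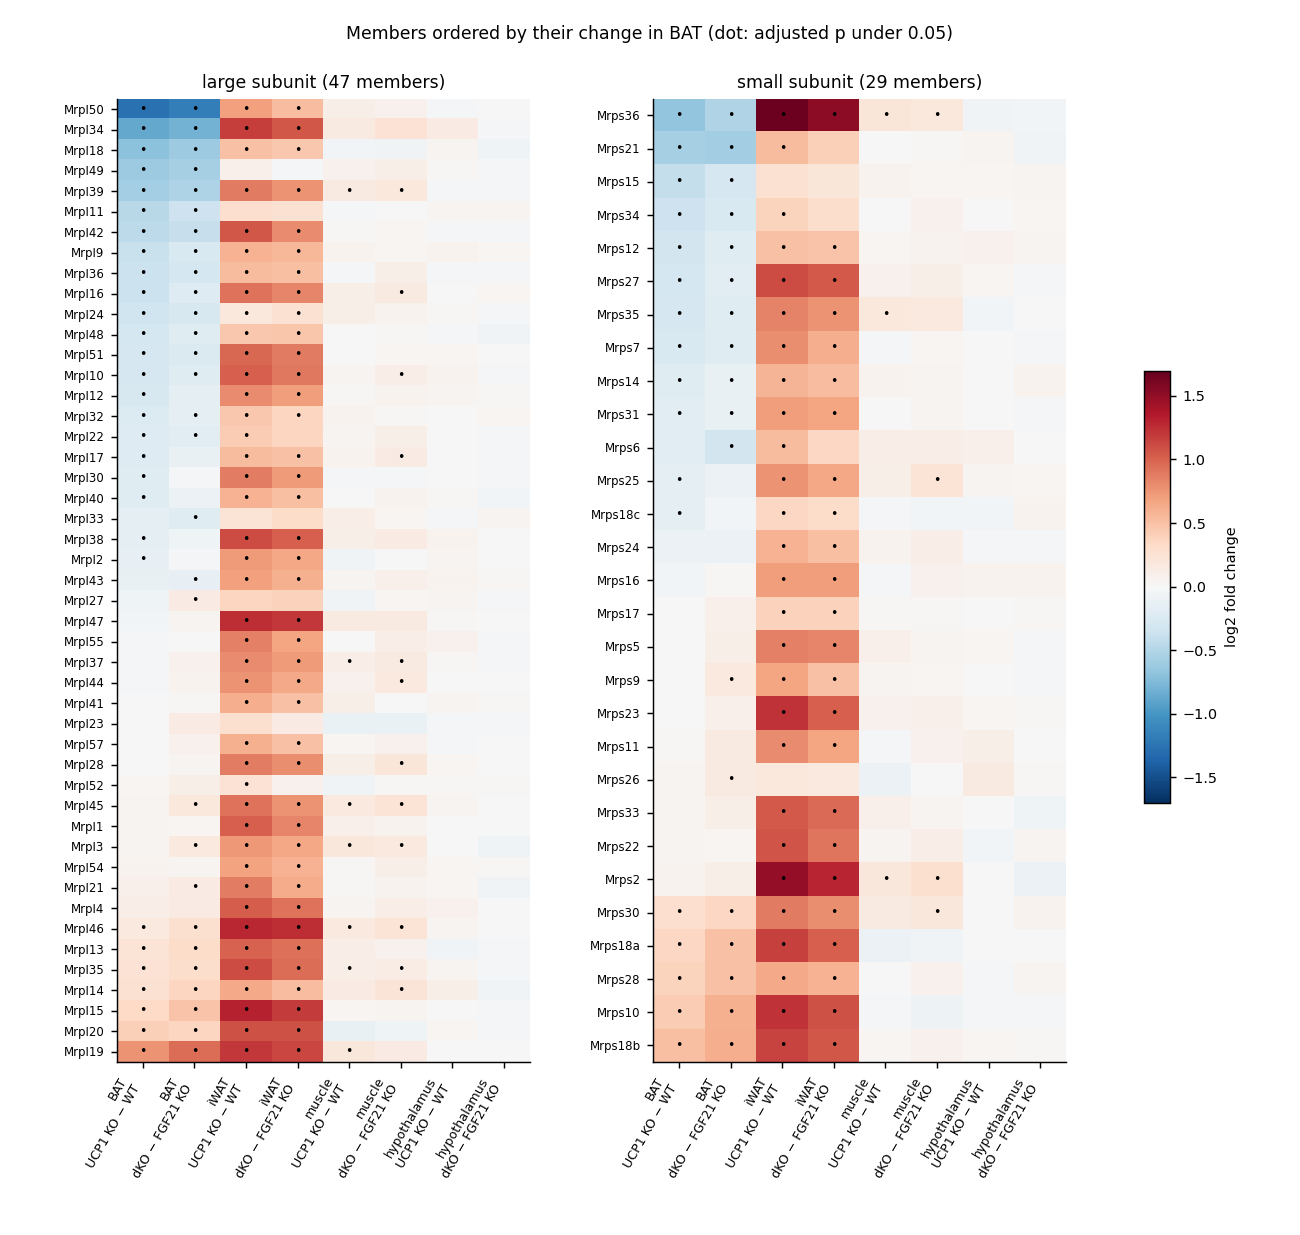
Heat map of the log2 fold change of the 76 tested members (large subunit left and small subunit right, 1 per line, ordered by their change in BAT) in UCP1 KO against WT and dKO against FGF21 KO in 4 tissues (columns); a dot marks adjusted p under 0.05 by edgeR, all on the TMM scale. The iWAT columns are red for nearly every member, with a highest value of 1.66 for Mrps36, and the BAT columns run from -1.28 for Mrpl50 to 0.77 for Mrpl19 against WT; with total counts the members' BAT median is 0.35 in place of -0.08, so most of the blue BAT values turn.

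In BAT the same genes split around the typical gene. Against WT, 12 of the 76 members rose and 34 fell in UCP1 KO, 60.5% in all, next to 60.1% of the 16032 genes tested, 30.2% higher and 29.9% lower; the share of members that passed was thus near the background. In dKO against FGF21 KO, 18 rose and 29 fell, beside 57.2% of all genes, 29.3% higher and 28.0% lower. The medians were -0.08 and 0.00 (log2), and -0.02 and -0.01 over all genes. With total counts the balance turned: 59 rose and 7 fell in the first comparison, beside 61.8% of all genes higher and 8.73% lower, and 60 and 6 in the second, beside 58.3% and 8.54%. The members' medians were then 0.35 and 0.37, beside 0.41 and 0.37 over all genes. RLE size factors gave the same counts as TMM.

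On the TMM scale the set of members that moved was much the same in the 2 comparisons, which share no library: 12 rose in both, 26 fell in both and 0 went opposite ways, so 82.6% of the first list and 80.9% of the second were shared. Over the 76 members the log2 fold changes of the 2 comparisons had Pearson's r = 0.98 and Spearman's rho = 0.96, given as a description because genes of a tissue share their libraries. The shared part and the correlation over all genes are not given here. These values therefore do not set the members apart from other genes. The libraries did not overlap for 30 members in UCP1 KO against WT (9 above, 21 below) and 38 in dKO against FGF21 KO (15 above, 23 below), beside 39.6% and 41.4% of all genes. With total counts 52 lay above and 1 below, and 53 above and 3 below, beside 50.3% and 52.5%. The 12 that rose in both comparisons rose in both with total counts too. Of the 26 that fell in both, 6 still fell in both (Mrpl18, Mrpl34, Mrpl39, Mrpl49, Mrpl50 and Mrps21), and 9 rose in both.

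Mrpl50, a large subunit protein without a bacterial counterpart (chr4:49512596-49521093, GRCm38), fell most in BAT. Its 5 WT libraries held 102, 103, 105, 116 and 133 CPM, and the 6 UCP1 KO libraries had a lowest, median and highest of 37.5, 46.7 and 51.9. The 5 FGF21 KO libraries held 102, 109, 110, 119 and 121 CPM, and dKO ran from 45.5 over 47.8 to 58.5. The UCP1-deficient libraries all lay below the UCP1-intact ones, at less than 60 CPM. The log2 fold changes were -1.28 ± 0.09 and -1.17 ± 0.09 (adjusted p = 4.92e-11 and 2.16e-10 by edgeR), and -0.84 and -0.79 with total counts, again without overlap. In iWAT, Mrpl50 rose, by 0.69 ± 0.12 against WT and 0.52 ± 0.13 in dKO against FGF21 KO.

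Mrpl34, a small large-subunit protein kept from bacteria (chr8:71464959-71465747), held 52.1, 59.9, 67.3, 68.1 and 68.8 CPM in WT BAT, and a lowest, median and highest of 29.5, 35.9 and 38.1 in UCP1 KO. In the 5 FGF21 KO libraries it held 52.1, 55.6, 58.9, 59.3 and 64.3 CPM, and dKO ran from 28.7 over 33.2 to 39.6. The UCP1-deficient libraries again lay below all others, with log2 fold changes of -0.87 ± 0.09 and -0.80 ± 0.09 (adjusted p = 2.97e-08 and 1.42e-07 by edgeR). With total counts the changes were -0.44 and -0.42, and UCP1 KO then overlapped WT. In iWAT the same gene rose by 1.18 ± 0.18 and 1.05 ± 0.19.

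Others that fell in both BAT comparisons were Mrpl18 (-0.69 and -0.61), Mrpl49 (-0.61 and -0.56), Mrpl39 (-0.58 and -0.53) and Mrpl11 (-0.48 and -0.36) of the large subunit, and Mrps36 (-0.68 and -0.51), Mrps21 (-0.57 and -0.59) and Mrps15 (-0.40 and -0.28) named for the small. With total counts Mrps15 had 0.03 and 0.10 and Mrpl11 -0.04 and 0.02, none of them past the test, and Mrps36 had -0.25, which passed, and -0.13, which did not (adjusted p = 0.0616). The stalk of the large subunit, where translation factors dock, is built from Mrpl10, Mrpl11 and Mrpl12. In BAT, Mrpl10 fell by 0.28 ± 0.06, Mrpl11 by 0.48 ± 0.05 and Mrpl12 by 0.27 ± 0.08 on the log2 scale in UCP1 KO against WT; in dKO against FGF21 KO, Mrpl12 had -0.16 (adjusted p = 0.0726). With total counts Mrpl10 rose by 0.15 and 0.18, and Mrpl12 had 0.16 (adjusted p = 0.0667) and rose by 0.22. In iWAT, Mrpl10 and Mrpl12 rose by 1.01 ± 0.13 and 0.80 ± 0.19, and Mrpl11 had 0.29 (adjusted p = 0.103; -0.09 with total counts).

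The 12 members that rose in both BAT comparisons were Mrpl13, Mrpl14, Mrpl15, Mrpl19, Mrpl20, Mrpl35 and Mrpl46 of the large subunit and Mrps10, Mrps18a, Mrps18b, Mrps28 and Mrps30 by name of the small. Mrpl19, a large subunit protein with a bacterial counterpart (chr6:81957851-81965958), held 32.7, 33.1, 33.4, 33.8 and 37.6 CPM in WT BAT and a lowest, median and highest of 50.9, 59.3 and 64.0 in UCP1 KO. Its FGF21 KO libraries held 31.5, 33.6, 33.8, 34.4 and 34.9 CPM, and dKO ran from 59.96 over 65.28 to 68.72. No UCP1-deficient library came below 50 CPM and no UCP1-intact one above 38. The log2 fold changes were 0.77 ± 0.05 and 0.95 ± 0.05 (adjusted p = 1.03e-10 and 6.37e-12 by edgeR), and 36.0% of its exon length overlaps Gcfc2 on the opposite strand.

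Vertebrates have 3 relatives of the bacterial ribosomal protein S18, namely Mrps18a, Mrps18b and Mrps18c. In BAT, Mrps18b held 43.6, 43.9, 46.0, 47.1 and 50.3 CPM in WT and a lowest, median and highest of 56.99, 65.02 and 75.54 in UCP1 KO. Its FGF21 KO libraries held 42.2, 45.6, 47.0, 47.1 and 49.2 CPM, and dKO ran from 64.6 over 70.7 to 76.5. It rose without overlap, by 0.51 ± 0.06 against WT and 0.62 ± 0.06 in dKO against FGF21 KO, and Mrps18a rose by 0.35 ± 0.05 and 0.50 ± 0.05. Mrps18c fell by 0.15 ± 0.06 against WT and had -0.05 (adjusted p = 0.515) in dKO against FGF21 KO. With total counts Mrps18c rose in both, by 0.28 and 0.335. Of the exon length of Mrps18b, 30.5% overlaps an antisense gene, Gm16279. Mrps10 rose by 0.44 ± 0.05 and 0.60 ± 0.05, and Mrps30 by 0.29 ± 0.05 and 0.36 ± 0.05.

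**Figure D2:**
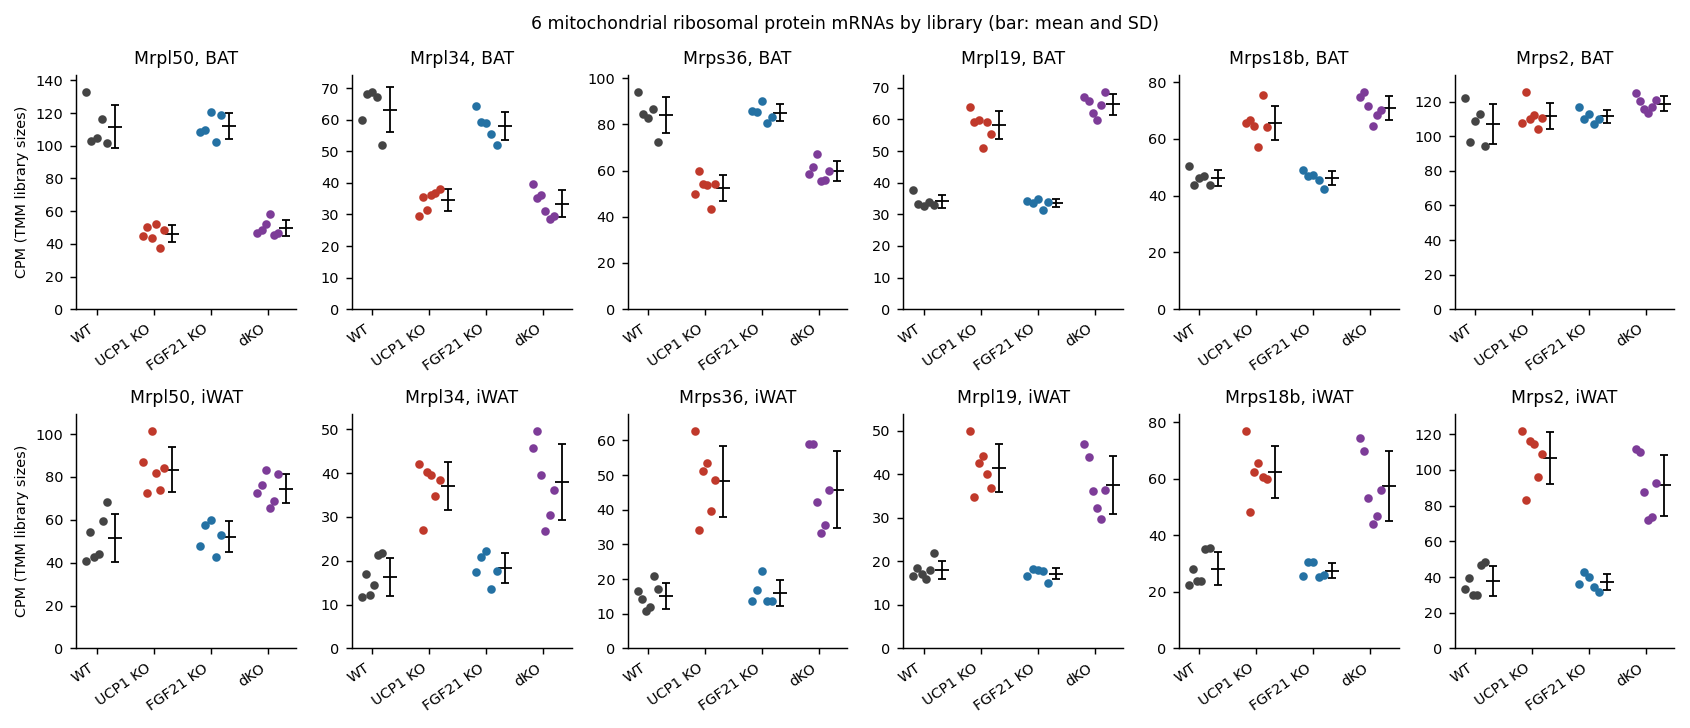
CPM of 6 members in each library of BAT (top) and iWAT (bottom) by genotype; points are libraries and bars the mean and SD. In BAT, Mrpl50, Mrpl34 and Mrps36 lie lower and Mrpl19 and Mrps18b higher in UCP1 KO and dKO, while Mrps2 overlaps between genotypes; all 6 lie higher in UCP1 KO and dKO in iWAT. The CPM are on the TMM scale, and for these members the direction of the fitted change is the same with total counts.

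The difference of the UCP1 effect between the depots was tested in a joint fit of both tissues, and its direction for most members held only relative to the typical gene. On the TMM scale the effect was higher in iWAT than in BAT for 73 of the 76 members and lower for 0, beside 27.7% higher, 25.0% lower and 52.6% in either direction over the 17186 genes tested. The median difference was 0.88 (log2), and -0.03 over all genes. The second pair of groups (dKO and FGF21 KO) gave 69 higher and 0 lower. With total counts 20 members were higher and 12 lower, beside 7.49% and 67.3% of all genes, with a median of 0.01, beside -0.92 over all genes; the second pair gave 21 and 11. Relative to the median of all genes, the members' median was 0.91 with TMM and 0.93 with total counts, values that stay close by construction and do not test the scaling. Among the members Mrps36 had the highest value, 2.40 ± 0.22 (adjusted p = 1.17e-11), followed by Mrpl34 with 2.12 ± 0.21 and Mrpl50 with 2.03 ± 0.16 (adjusted p = 9.21e-11 and 3.87e-13, by edgeR). These remained higher with total counts, at 1.51, 1.25 and 1.16. The 95% intervals that reached least far from 0 were those of Mrps26, Mrpl52 and Mrpl23. Mrpl52 and Mrpl23 passed with 0.27 and 0.33 (adjusted p = 0.0454 and 0.0459) but not in the second pair of groups. Mrpl14, Mrps28 and Mrps26 did not pass; Mrps26 had 0.19, with a 95% interval from -0.08 to 0.46. With total counts all 5 of these were lower in iWAT, Mrps26 at -0.69, Mrpl52 at -0.61 and Mrpl23 at -0.56.

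On the TMM scale, the members that rose in both BAT comparisons had all risen in both iWAT comparisons too, with a median log2 fold change of 1.13 in iWAT UCP1 KO against WT and a range from 0.64 to 1.31. Of the 26 that fell in both BAT comparisons, 20 rose in both iWAT comparisons, and the median of the 26 in iWAT was 0.58. The 21 that passed in neither BAT comparison had an iWAT median of 0.81. Over the 76 members the effects in the 2 depots had r = 0.29 and rho = 0.39 for UCP1 KO against WT, and r = 0.33 and rho = 0.37 for dKO against FGF21 KO, given as descriptions.

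**Figure D3:**
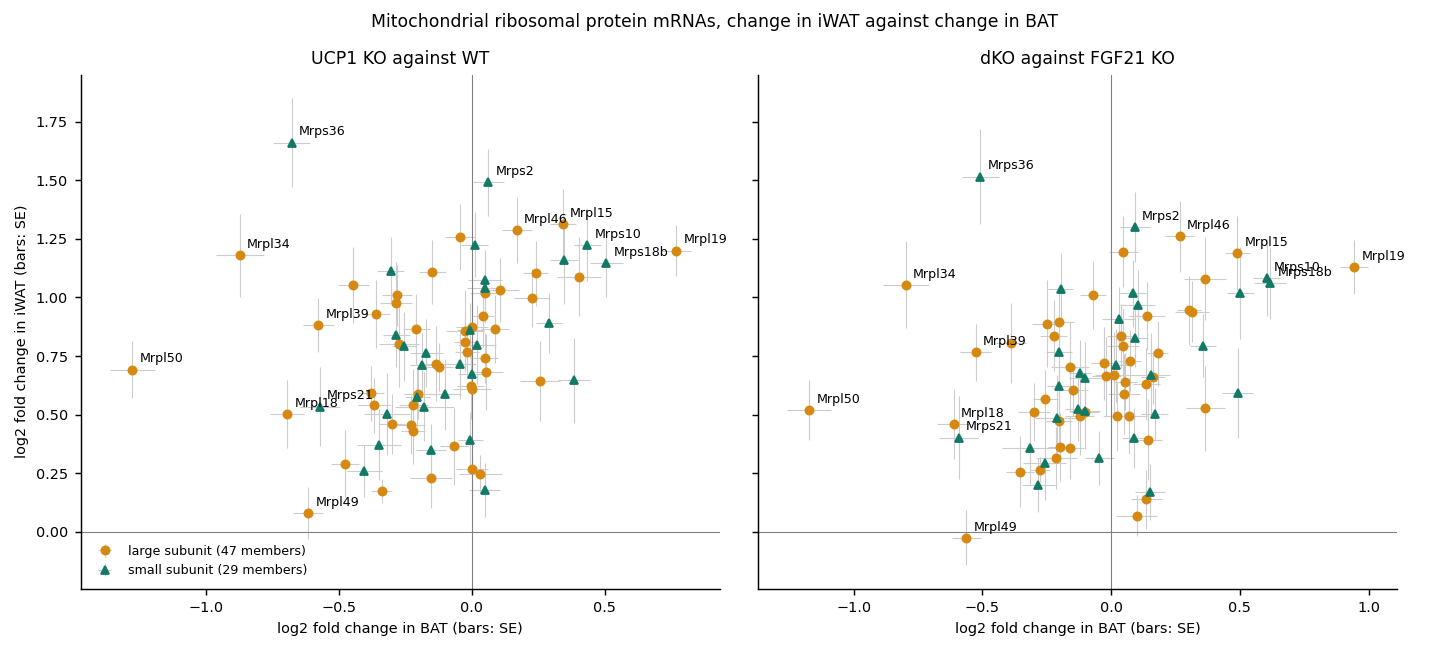
Log2 fold change in BAT (horizontal) against iWAT (vertical) for UCP1 KO against WT (left) and dKO against FGF21 KO (right); each point is a member, circles for the large and triangles for the small subunit, with bars of SE. Nearly all points lie above 0 on the iWAT axis while they spread to both sides of 0 on the BAT axis, and Mrps36, Mrpl34 and Mrpl50 stand at the upper left. The values are on the TMM scale; with total counts 67 of the 76 lie above 0 in BAT and 66 in iWAT for UCP1 KO against WT.

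Loss of FGF21 alone went with no call among the members. In FGF21 KO against WT 0 members passed in any tissue by edgeR or by DESeq2. Over all genes the shares that passed were 0.025% (BAT), 0.00597% (iWAT), 0.0198% (muscle) and 0.00555% (hypothalamus). At an unadjusted p under 0.05 edgeR gave 4, 0, 2 and 2 members in that order, beside 9.44%, 2.72%, 4.2% and 2.48% of all genes. In dKO against UCP1 KO in BAT, 0 members passed by edgeR, beside 1.73% of all genes; DESeq2 called 6, all 6 higher in dKO, and the median was 0.07. An unadjusted p under 0.05 was found for 24 members there, beside 16.6% of all genes. In iWAT, muscle and hypothalamus 0 passed in that comparison by either tool, beside 0.0358%, 0% and 0.0111% of all genes. Unadjusted, 0, 4 and 4 members were under 0.05 by edgeR, beside 2.9%, 5.8% and 4.06%. For the interaction of both knockouts 0 passed by either tool in any tissue, beside 0% of all genes in each. Unadjusted, the counts under 0.05 in the order of tissues used above were 7, 0, 0 and 3 members, beside 7.29%, 2.56%, 3.56% and 2.74% of all genes. In these 3 comparisons total counts also called 0 members in every tissue.

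In dKO against WT, 19 members rose and 30 fell in BAT, 63 rose and 0 fell in iWAT, and 7 rose and 2 fell in muscle, beside 59.1%, 37.0% and 10.3% of all genes in either direction. Over all genes 29.7% were higher and 29.3% lower in BAT, 19% and 18.0% in iWAT, and 4.85% and 5.46% in muscle. With total counts 59 rose and 5 fell in BAT, beside 56.9% and 9.5% of all genes, and 55 and 3 in iWAT, beside 11.5% and 44.5%. The 2 that fell in muscle were Mrpl20 and Mrpl23, with -0.18 and -0.17 (adjusted p = 0.0239 and 0.0196 by edgeR).

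In muscle few members passed. In UCP1 KO against WT, 10 of the 76 members (13.2%) rose and 0 fell, a share near the 12.3% of all genes that passed in either direction, 5.89% higher and 6.42% lower, and in dKO against FGF21 KO 16 rose and 0 fell, beside 7.76%, 3.63% and 4.13%. Of the members, 58 had values above 0 and 18 below in the first comparison, and 68 and 8 in the second. Those that rose in both were 8: Mrpl3, Mrpl35, Mrpl37, Mrpl39, Mrpl45, Mrpl46, Mrps2 and Mrps36. Mrps36 ran from 20.97 to 22.82 CPM in WT and from 23.4 to 28.2 in UCP1 KO, without overlap, a log2 fold change of 0.21 ± 0.05 (adjusted p = 0.00543 by edgeR). Mrps2 ran from 14.7 to 16.2 CPM in FGF21 KO and from 17.9 to 19.4 in dKO, also without overlap, 0.27 ± 0.05 (adjusted p = 0.00214). Without overlap were 1 member in the first comparison and 13 in the second, beside 3.68% and 7.73% of all genes. When UCP1 KO and WT muscle were fitted without the other genotypes, 2 of the 76 passed. In hypothalamus 0 members passed in any comparison by edgeR or by DESeq2, at most 0.0555% of all genes did, and the members' log2 fold changes in UCP1 KO against WT ran from -0.07 to 0.15, with 3 at an unadjusted p under 0.05, beside 5.43% of all genes.

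Summed over the members, iWAT was higher without UCP1 with both scalings, while BAT changed direction with the scaling. In iWAT, WT libraries summed to 2611 ± 477 CPM (SD, n = 6) and UCP1 KO libraries to 4556 ± 501 (n = 6). FGF21 KO libraries reached 2614 ± 411 (n = 5) and dKO libraries 4269 ± 776 (n = 6). The UCP1-deficient groups did not overlap the UCP1-intact ones, with sums 74.5% and 63.3% higher. Per M total counts the iWAT sums were 2965 ± 150 in WT, 3973 ± 257 in UCP1 KO, 2846 ± 163 in FGF21 KO and 3877 ± 332 in dKO, 34.0% and 36.3% higher, again without overlap.

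In BAT the sums were 4600 ± 220 CPM (n = 5), 4202 ± 176 (n = 6), 4580 ± 132 (n = 5) and 4426 ± 216 (n = 6) in the same order, with lower means without UCP1 (-8.7% and -3.4%) and overlapping groups. Per M total counts they were 3953 ± 157, 4877 ± 177, 3920 ± 129 and 4925 ± 228, so the UCP1-deficient groups were 23.4% and 25.6% higher, without overlap. In muscle and hypothalamus the group means lay between 2400 and 2547 and between 1908 and 1940 CPM, and the groups overlapped.

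The balance of the subunits was read as the ratio of summed large to summed small subunit CPM within a library. In BAT the 5 WT libraries ran from 1.973 to 2.038 and the 6 UCP1 KO libraries from 1.875 to 1.915; FGF21 KO had a mean of 2.008 ± 0.010 (SD, n = 5) and dKO of 1.891 ± 0.022 (n = 6). The UCP1-deficient libraries lay below the UCP1-intact ones without overlap, a log2 difference of -0.087 in both comparisons; this ratio within a library does not depend on the scaling. The size depends on where Mrps30 and Mrps18a are counted: with both in the large subunit, as in structures, the log2 difference was -0.030 for UCP1 KO against WT, with overlapping libraries, and -0.024 for dKO against FGF21 KO. Mrps36, described above as a part of another complex, stayed in the small subunit in both assignments. Its log2 fold change in UCP1 KO against WT was -0.68 in BAT and 1.66 in iWAT. The ratio without Mrps36 is not given here, so its weight in these differences was not tested. In iWAT the log2 difference was -0.035 for UCP1 KO against WT, without overlap, and -0.003 with the structural assignment; for dKO against FGF21 KO it was -0.020, with overlap, and 0.009 with the structural assignment. In UCP1 KO against WT, the large subunit by name had 22 members lower and 7 higher of 47 in BAT. The small had 12 lower and 5 higher of 29, with medians of -0.12 and -0.04, beside 29.9% of all genes lower and 30.2% higher. With total counts these were 5 lower and 35 higher, and 2 lower and 24 higher, with medians of 0.31 and 0.39. Over all genes 8.73% were then lower and 61.8% higher. In iWAT 42 of 47 and 27 of 29 rose, with medians of 0.77 and 0.76, beside 22.3% of all genes higher. With total counts 34 and 21 rose there, with medians of 0.38 and 0.38, beside 12.2%. Of the members with and without a bacterial counterpart, 28 of 46 and 18 of 30 passed in BAT, near the 60.1% of all genes. In iWAT 41 of 46 and 28 of 30 passed, beside 46.3% of all genes. This split counted Mrps18c as having a bacterial counterpart and Mrps18a and Mrps18b as having none, although all are relatives of bacterial S18.

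**Figure D4:**
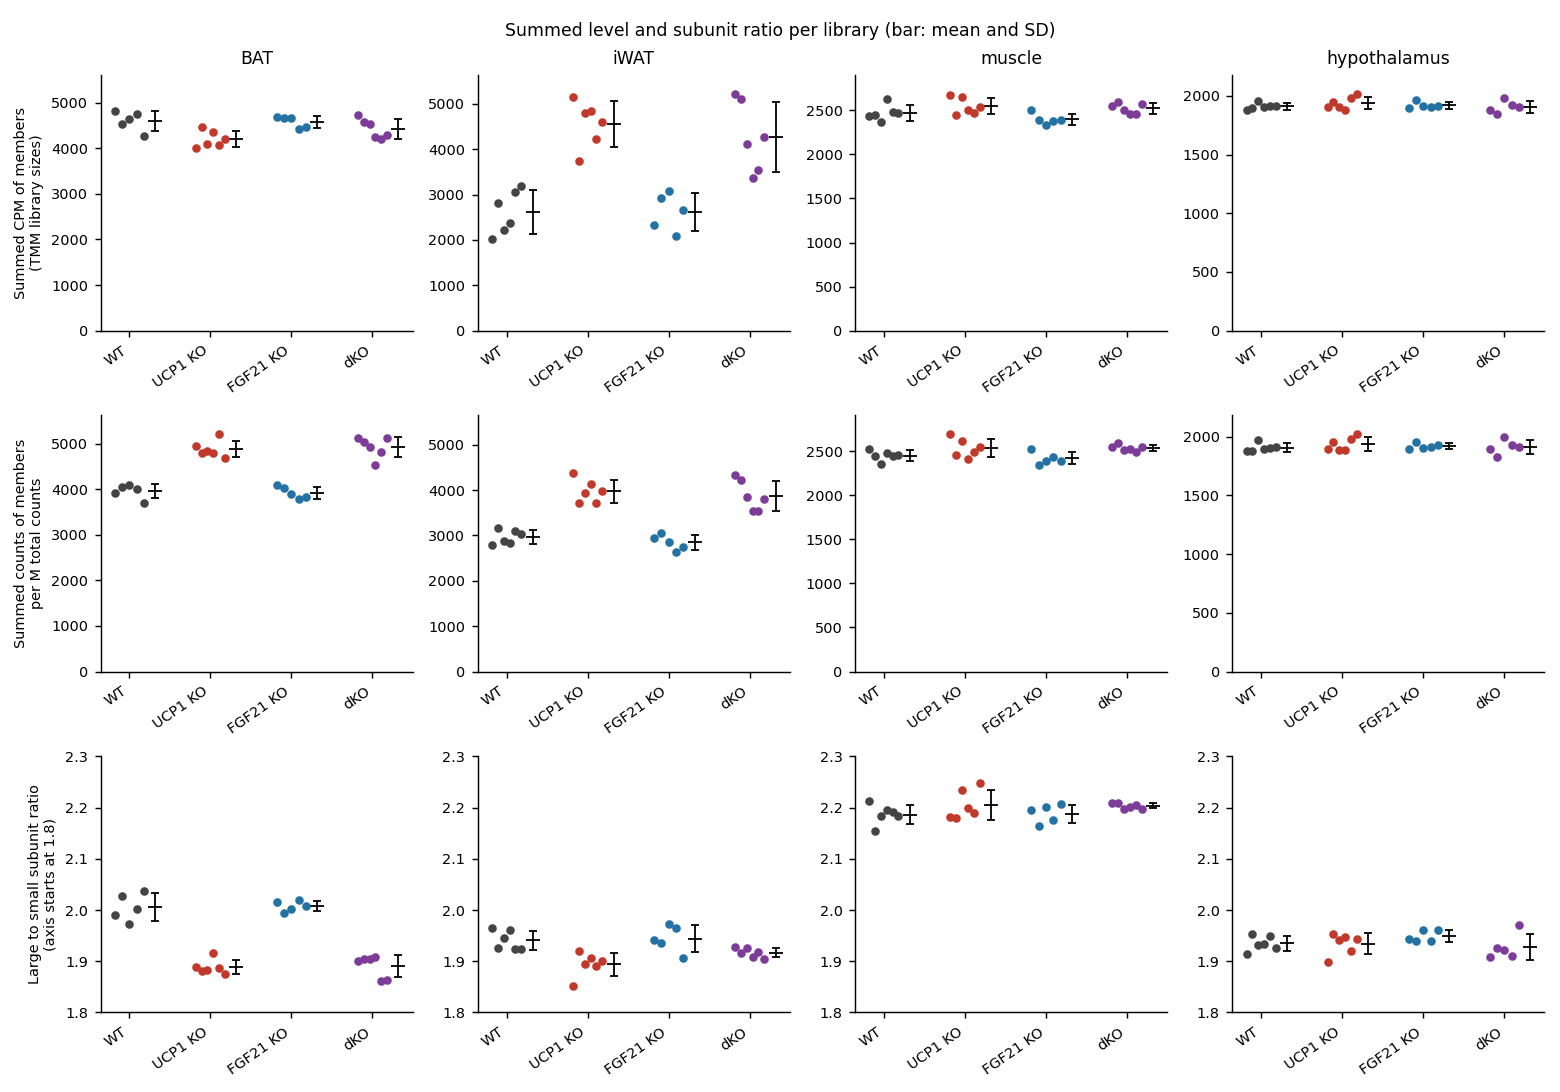
Summed CPM of the members scaled by TMM (top), the same sums per M total counts (middle) and ratio of large to small subunit counts (bottom; the axis starts at 1.8) in each library of 4 tissues by genotype, with mean and SD. In iWAT the sums of UCP1 KO and dKO lie above those of WT and FGF21 KO with both scalings. In BAT the means of the UCP1-deficient groups are lower with TMM (4202 and 4426 CPM) and higher with total counts (4877 and 4925), and the ratio lies at 1.862 to 1.915 in UCP1-deficient and 1.973 to 2.038 in UCP1-intact libraries.

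The members stood highest in BAT and lowest in hypothalamus among the WT tissues with both scalings, while muscle and iWAT changed places. With all libraries on 1 scale for BAT, iWAT, muscle and hypothalamus, the members summed to 4928 ± 224 CPM (SD, n = 5) in BAT, 3726 ± 161 (n = 6) in muscle, 2365 ± 441 (n = 6) in iWAT and 1234 ± 17 (n = 6) in hypothalamus, each step without overlap. Per M total counts BAT summed to 3952 ± 157, iWAT to 2965 ± 150, muscle to 2450 ± 58.4 and hypothalamus to 1908 ± 34.7, also without overlap. On the TMM scale BAT lay above iWAT without overlap for 69 of 76 members, beside 20.2% of all genes. With total counts it lay above for 47 and below for 5, beside 7.6% and 41.8%. On the TMM scale UCP1 KO iWAT reached 4287 ± 521 CPM (n = 6). Per kb of exon, Mrpl12 had the highest level in WT BAT, 113 CPM per kb, and Mrpl23, a protein at the exit of the peptide tunnel, the lowest, 4.12; the median was 27.1. The 3 members with the most CPM there, Mrpl42, Mrpl12 and Mrpl51, had 48.6, 113 and 37.6 CPM per kb, and the 3 with the least, Mrpl52, Mrpl57 and Mrpl23, had 14.6, 6.20 and 4.12. Mrpl34, Mrps2, Mrpl39 and Mrps36 stood furthest above the next tissue in BAT, by 1.77, 1.73, 1.52 and 1.43 (log2; 1.57, 1.09, 0.87 and 1.72 with total counts), while Mrpl23 stood higher in muscle than in BAT, at 41.2 against 20.1 CPM (27.1 against 16.2 with total counts). Over the 76 members the log2 ratio of WT BAT to WT iWAT levels went with the change in iWAT of dKO against FGF21 KO, which shares no library with it, at r = 0.75 and rho = 0.72, and with that in BAT at r = -0.19 and rho = -0.10; this is a description over genes of 1 complex.

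RefSeq promoter windows were matched by symbol for 68 members, without Mrpl4, Mrpl13, Mrpl15, Mrpl19, Mrpl38, Mrpl54, Mrps28, Mrps34 and Mrps35. The ETS core CCGGAAG, the letters read by the GABP factor, was in 25 of 68 (36.8%) on either strand, beside 17.9% of the 11350 genes tested in BAT with a promoter and 9.93% of all 27025 promoters. The YY1 core AAGATGGC was in 12 (17.6%, beside 4.71% and 3.19%), and the core GCGCATGCG of nuclear respiratory factor 1 in 7 (10.3%, beside 3.74% and 1.95%), 6 of them of the large subunit. The 6 central letters of the nuclear respiratory factor 1 core, GCATGC, were in 9 (13.2%, beside 10.8% and 8.93%). The CRE TGACGTCA was in 2 (2.94%, beside 3.41% and 2.03%) and the E-box CACGTG in 5 (7.35%, beside 11.3% and 8.09%). The element TGATGNAAN of C/EBP and ATF factors was in 0 of 68, beside 2.90% and 4.5%. All motifs were searched on both strands. Of the promoters printed above, Mrps18a holds the ETS core 26 bases before the start and the YY1 core 11 bases after it, Mrps18b the nuclear respiratory factor 1 core (opposite strand) and an ETS core (opposite strand), and Mrps36 and Mrpl50, like Mrps2 and Mrpl46, hold none of these letters. Mrps18a and Mrps18b were added after their values were seen, because each holds 2 of the motifs, the short form GCATGC not counted. Among the 12 members that rose in both BAT comparisons 8 had a window, and 2 of these held the ETS core; among the 26 that fell 24 had a window, and 8 held it.

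Other genes of the same process were counted in UCP1 KO against WT. Over all genes tested, 30.2% were higher and 29.9% lower in BAT, and 22.3% and 24.0% in iWAT. With total counts these shares were 61.8% and 8.73% in BAT, and 12.2% and 53.3% in iWAT. They are the background for every list counted below. The BAT balance turned with total counts for all lists but the nuclear regulators and the cytosolic ribosomal proteins. The 6 mitochondrial ribosome proteins with other names gave 1 higher and 3 lower in BAT (5 higher and 0 lower with total counts) and 5 higher in iWAT (2 with total counts). Dap3, a small subunit protein that binds GTP, had -0.33 in BAT and 0.35 in iWAT, both past the test; with total counts it had 0.10, which passed, and -0.04, which did not. Of 15 translation factors, 10 fell and 2 rose in BAT, and 13 rose in iWAT; with total counts 2 fell and 9 rose in BAT, and 12 rose and 2 fell in iWAT. Tufm, the elongation factor that brings aminoacyl-tRNA to the ribosome, fell by 0.79 in BAT and rose by 1.04 in iWAT, with the same directions with total counts (-0.36 and 0.66). Gfm1, the elongation factor that moves the ribosome along, rose by 1.59 in iWAT.

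Of 23 assembly factors, 8 fell and 6 rose in BAT and 17 rose in iWAT; with total counts 1 fell and 18 rose in BAT, and 7 rose and 5 fell in iWAT. Ddx28, an RNA helicase of large subunit assembly, rose by 0.75 in BAT (1.20 with total counts), and Nsun4, an rRNA methyltransferase, by 1.18 in iWAT (0.78). Tfb2m, the transcription factor of mitochondrial promoters, fell by 0.79 in BAT and rose by 1.13 in iWAT (-0.37 and 0.75 with total counts).

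Among 10 nuclear regulators, 7 rose and 2 fell in BAT and 5 rose and 2 fell in iWAT; with total counts 9 rose and 0 fell in BAT, and 5 rose and 4 fell in iWAT. Ppargc1b, a coactivator of mitochondrial genes, fell by 0.81 in BAT and rose by 1.56 in iWAT; with total counts it had -0.38 in BAT, which did not pass (adjusted p = 0.0889). Its relative Ppargc1a rose in both, by 0.87 and 1.86. Myc, a driver of ribosome synthesis, rose by 2.50 in BAT and had -0.48 in iWAT, which did not pass (with total counts it fell there, adjusted p = 0.0385). Respiratory complex I (Nduf genes), whose core also holds subunits made on mitochondrial ribosomes, had 29 of 37 lower and 0 higher in BAT, with a median of -0.36, and 35 of 37 higher in iWAT, with a median of 1.17. With total counts complex I had 17 higher and 6 lower in BAT, with a median of 0.07, below that of all genes, and 33 higher and 1 lower in iWAT. The cytosolic ribosomal proteins, taken by name without the S6 kinases and Rps19bp genes, a trim made after the name rule was written, went the other way: 72 of 86 higher and 1 lower in BAT, median 0.36, and 4 higher and 57 lower in iWAT, median -0.42. Their directions were the same with total counts, with 82 higher in BAT and 76 lower in iWAT. Beside these stood 61.8% of all genes higher in BAT and 53.3% lower in iWAT.

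**Figure D5:**
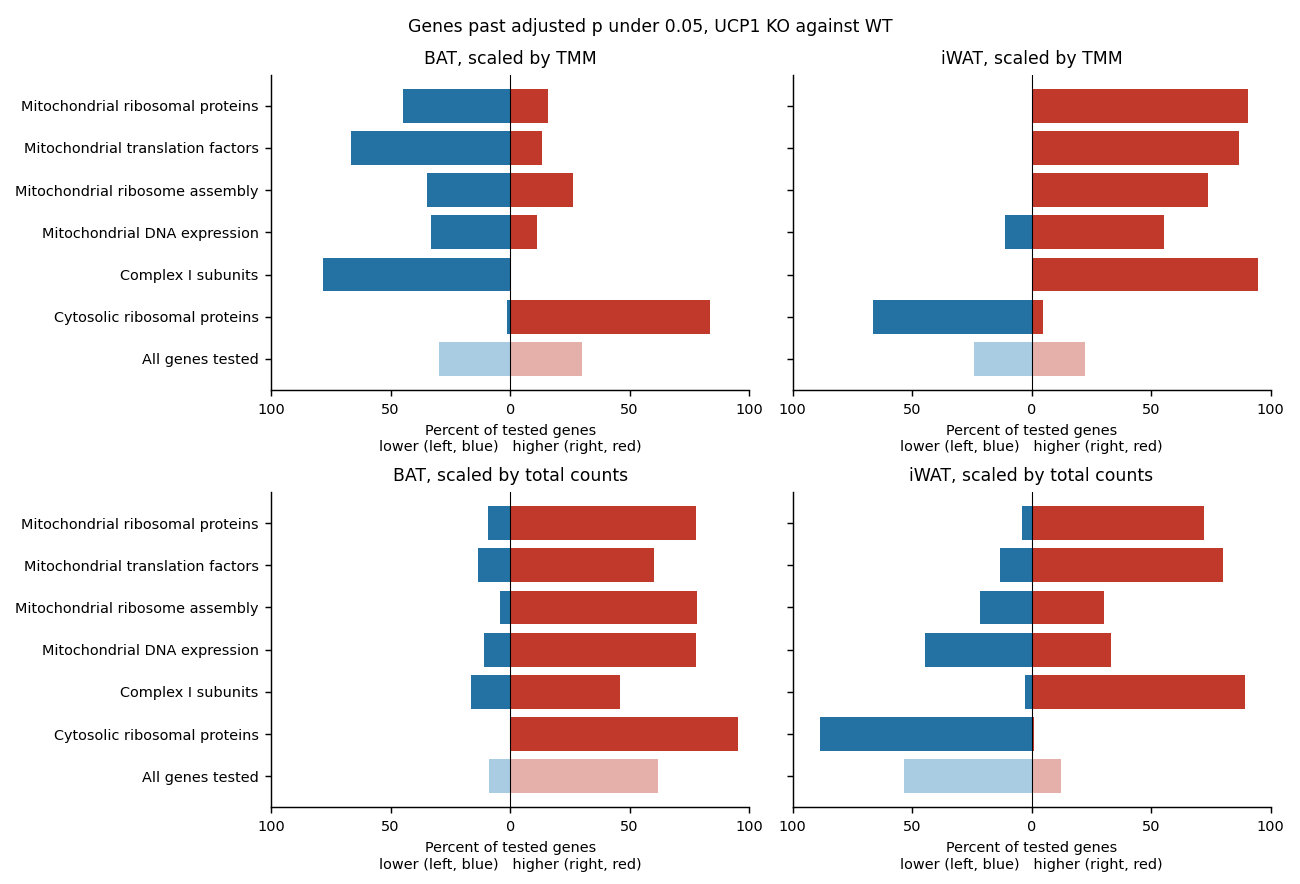
Percent of tested genes that rose (right, red) or fell (left, blue) in UCP1 KO against WT at adjusted p under 0.05 by edgeR, for the members, 5 other lists and all genes, in BAT (left) and iWAT (right), scaled by TMM (top) and by total counts (bottom). With TMM complex I had 29 of 37 lower in BAT, and with total counts 17 higher and 6 lower; in iWAT it had 35 and 33 higher. The cytosolic ribosomal proteins were mostly higher in BAT and lower in iWAT with both scalings.

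Markers of several cell types moved with these results. In iWAT a brown adipocyte list without Ucp1 (5 genes) summed to 470 to 1515 CPM in WT, 4856 to 8261 in UCP1 KO, 404 to 1441 in FGF21 KO and 4050 to 8532 in dKO, with no gene of the list under 0.1 CPM throughout. The 5 white adipocyte genes had a mean log2 CPM of 6.70 to 7.37 in WT and 5.99 to 6.42 in UCP1 KO iWAT, and of 5.04 to 6.95 in FGF21 KO and 5.75 to 6.31 in dKO. The 8 macrophage genes with a row, of 9, summed to a median of 955 CPM (673 to 1204) in WT and 597 (449 to 760) in UCP1 KO iWAT, and to 850 to 1272 in FGF21 KO and 572 to 1007 in dKO.

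In BAT the macrophage genes summed to 152 to 206 CPM in WT and 660 to 1011 in UCP1 KO, and to 154 to 330 in FGF21 KO and 447 to 675 in dKO. White adipocyte genes there summed to 173 to 278 CPM in WT, 542 to 849 in UCP1 KO, 178 to 279 in FGF21 KO and 696 to 922 in dKO. By mean log2 CPM, the measure used for them in iWAT, the BAT groups overlapped. It ran from 3.24 to 3.92 in WT, 3.29 to 4.41 in UCP1 KO, 3.02 to 3.74 in FGF21 KO and 3.20 to 4.60 in dKO. The higher sum therefore does not hold for the list as a whole. The brown list without Ucp1 summed to 5943 to 7405 CPM in WT and 6289 to 9370 in UCP1 KO BAT, and per M total counts to 5316 to 6241 and 8024 to 10070. None of the macrophage and white adipocyte genes was under 0.1 CPM in all libraries of either depot. The part of these cells in the results was not tested.

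In iWAT the libraries high in lymphocyte genes had the lower member sums within WT, at 2020 to 2821 CPM beside 3050 to 3193. The same held within FGF21 KO (2076 to 2339 beside 2656 to 3077) and dKO (3357 to 4115 beside 4270 to 5225). Within UCP1 KO the ranges overlapped (3736 to 4834 beside 4593 to 5139). Per M total counts the ranges overlapped in every genotype. In WT the libraries high in lymphocyte genes then held 2786, 2839, 2884 and 3155, beside 3031 and 3096. In the other genotypes both ends of their range were lower, as with 3704 to 4134 beside 3941 to 4378 in UCP1 KO. Without the 12 libraries high in lymphocyte genes, 2 WT, 3 UCP1 KO, 3 FGF21 KO and 3 dKO libraries were left. In that fit 63 members rose and 0 fell in UCP1 KO against WT, beside 19.4% of all genes higher and 19.1% lower, and 73 and 0 in dKO against FGF21 KO, beside 23.0% and 24.7%. Without the iWAT libraries high in muscle fibre genes, 69 and 68 rose and 0 fell, beside 22.1% higher and 26.5% lower, and 17.0% and 14.5%. Without such libraries in BAT (3 WT, 4 UCP1 KO, 3 FGF21 KO and 5 dKO left), 46 passed in UCP1 KO against WT, 10 of them higher, beside 27.9% of all genes higher and 27.3% lower. In dKO against FGF21 KO 42 passed, 16 of them higher, beside 26.7% and 26.4%. Mrpl13, which rose in both BAT comparisons, then had 0.13 against WT (adjusted p = 0.159 by edgeR).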

How the data were processed

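RNA had been measured in 90 libraries (TruSeq stranded, poly(A) selected, paired reads of 100 bases, per the labels' protocols). The authors deposited whole-number read counts per gene; STAR, HTSeq and mm10 are named in the submitters' processing notes, with versions, annotation and strand setting not given in the sources used here. Each file held 32765 rows; 66 repeated names were summed and 2 rows naming no gene (at most 0.22% of counts) were left out. Totals were 18.1 M to 69.9 M counts. Genotype came from the sample titles, which carry no replicate numbers.

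Each tissue was fitted separately with edgeR 4.0.16 in R 4.3.3 (all 4 genotypes, TMM scaling, low-count filter, robust quasi-likelihood test), with Benjamini-Hochberg adjustment over all genes tested; CPM uses TMM library sizes, so a sum of CPM is not a share of the counts. BAT and iWAT were fitted jointly for the difference of the UCP1 effect. Intervals of 95% are 1.96 SE. The scripts were tested on simulated data. Alternatives were DESeq2 1.42.0, limma 3.58.1 (voom, joint fit), RLE size factors, no filter, the compared groups alone, libraries high in muscle fibre or lymphocyte genes left out, and each library left out; the muscle fibre exclusion in iWAT and total counts of the tested genes in place of TMM were chosen after seeing the data. Replicate pairs (210) all differed by more than counting noise (chi-square per degree of freedom 3.63 to 710). Tables and figures used pandas 2.3.3, numpy 2.4.6 and matplotlib 3.10.9. Gene positions are from GENCODE M21 (GRCm38) and promoters from RefSeq (GRCm38.p6).

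The members and lists were chosen with earlier results of these data known. Named members are, per subunit, up to 6 called per direction by size of change in BAT and iWAT, those against their subunit's majority, up to 3 by smallest p elsewhere, up to 8 for the depot difference and 3 nearest 0 there, the 3 highest and 3 lowest in WT BAT, Mrpl53 as untested, and Mrps30, Mrps18a, Mrps18b, Mrps18c, Mrps36 and Mrpl12 for their roles. Some list genes outside the rule (Dap3, Gfm1, Ddx28, Ppargc1a, Ppargc1b) and the stalk proteins Mrpl10 and Mrpl11 were named for their roles after their values were seen.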

Additional observations from a re-analysis of the deposited data

Results flagged for a closer look

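Of 80 groups of 4 to 10 libraries examined for a library far from the others, 6 held one, where chance gives about 1 in 20. In BAT, UCP1 KO replicate 4 had a large to small subunit ratio of 1.915, with the other UCP1 KO libraries at 1.875 to 1.889. In hypothalamus, FGF21 KO replicate 2 had summed member CPM of 1968, with the others at 1895 to 1914, and dKO replicate 5 had a subunit ratio of 1.97, with the others at 1.908 to 1.925. In BAT, Mrpl19 stood at 37.61 CPM in WT replicate 1 and at 32.68 to 33.82 in the other WT libraries. Mrps10 stood at 36.4 CPM in BAT of FGF21 KO replicate 4, beside 34.84 to 35.13, and Mrpl20 at 108 CPM in FGF21 KO replicate 1, beside 90.08 to 95.07.

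The UCP1 effect differed between iWAT and BAT, by the joint edgeR fit, for 73 of the 76 members with TMM scaling, beside 52.6% of all genes. With total counts it differed for 32, 20 higher and 12 lower in iWAT, beside 7.49% of all genes higher and 67.3% lower. The log2 differences (iWAT minus BAT) of the 8 members with the smallest p were 2.03 for Mrpl50, 1.52 for Mrpl39, 2.40 for Mrps36, 2.12 for Mrpl34, 1.48 for Mrps27, 1.49 for Mrps2, 1.35 for Mrpl10 and 0.58 for Mrpl24 (-0.32 with total counts).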

How the results depend on the processing

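No paired analysis was possible because replicates are unnumbered in the labels and libraries cannot be matched to mice. Scaling by total counts in place of TMM, chosen after seeing the data, moved most values set between genotypes in the fat depots. The percent difference of the summed members reversed in BAT, to 23.4 and 25.6, and became 34.0 and 36.3 in iWAT, for UCP1 KO against WT and dKO against FGF21 KO. The large and small subunit medians in BAT became 0.31 and 0.39, 0.36 and 0.40, and 0.32 and 0.36 for those 2 comparisons and dKO against WT. In iWAT they became 0.38 and 0.38, 0.39 and 0.41, and 0.39 and 0.34. The members whose UCP1 effect differed between the depots fell from 73 to 32, beside 52.6% of all genes with TMM. With total counts 7.49% of all genes were higher and 67.3% lower. In BAT, UCP1 KO against WT, the values of Mrps12 (0.11), Mrps15 (0.03), Mrps27 (0.13) and Mrps34 (0.08) reversed, and in dKO against FGF21 KO those of Mrps12 (0.17), Mrps15 (0.10), Mrps34 (0.12) and Mrps6 (0.06). The depot differences of Mrpl24 (-0.32), Mrps26 (-0.69), Mrpl52 (-0.61) and Mrpl23 (-0.56) reversed as well. RLE size factors and DESeq2, where they were run, reversed none of these. The members named here are not all that turned. Of the 26 members that fell in both BAT comparisons with TMM, 9 rose in both with total counts. The depot difference was called lower in iWAT for 12 members with total counts and for 0 with TMM. The count of members in BAT for dKO against UCP1 KO was 0 and became 1 with RLE size factors, 6 with DESeq2 and 0 to 5 with 1 library left out (1 without WT replicate 1 or 5, 2 without dKO replicate 4, 5 without UCP1 KO replicate 2). The count in muscle for UCP1 KO against WT was 10 and became 6 without the low-count filter, 2 with the compared groups alone and 5 to 14 with 1 library left out (5 without UCP1 KO replicate 1). In muscle, dKO against FGF21 KO gave 16, and 9 to 18 with 1 library left out (9 without FGF21 KO replicate 3 or 4, 10 without FGF21 KO replicate 2 or dKO replicate 2). Leaving out 1 library gave 43 to 48 and 40 to 48 in BAT, and 67 to 73 and 56 to 70 in iWAT, for UCP1 KO against WT and dKO against FGF21 KO. The large subunit median for the iWAT interaction changed sign, from -0.10 to 0.15, without the libraries high in lymphocyte genes. The log2 difference of the subunit ratio in BAT became -0.069 and -0.072 with mean log2 CPM and -0.030 and -0.024 with Mrps30 and Mrps18a in the large subunit; in iWAT it became -0.003 and, with a change of sign from -0.020, 0.009 with that assignment and -0.041 with mean log2 CPM for dKO against FGF21 KO. Except where the construction shows it (fewer samples, other assignment), the cause was not tested. Of the other summary values, 493 kept their side under the alternatives and 1814 with 1 library left out. The member choice on pseudogene-like rows could not apply, since no member has such a row.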
